A study of Mus musculus with 6 samples.

Results

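The MHC class II presentation genes are 7 genes taken by symbol, H2-Aa, H2-Ab1, H2-Eb1, H2-DMa, H2-DMb1, Cd74 and Ciita, out of 21829 genes in the deposited table. All 7 were in the table and all 7 passed the filter on low values. They were measured in 6 RNA-seq libraries of the epididymal fat pad, a visceral white fat depot next to the testis. Of these, 3 libraries were labelled ZFP251 KO and 3 came from wild-type (WT) littermates. All mice were C57BL/6J males on a normal diet, and were 20 weeks old. ZFP251 is a zinc finger protein, and the design asks what its loss does in this fat. The labels do not give the allele, how the knockout was made, or whether each library came from its own mouse. The p-values below therefore rest on the spread among libraries alone, part of which may be technical.

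Class II molecules are paired alpha and beta chains that carry peptides from endosomes to the cell surface, where CD4+ T cells read them. The invariant chain, encoded by Cd74, fills the groove of new pairs and leads them to endosomes, where proteases trim it. The DM heterodimer then exchanges its last fragment for a peptide. The coactivator CIITA switches these genes on through factors bound at the X and Y boxes of their promoters. In fat, macrophages, dendritic cells and B cells carry class II, and adipocytes can too.

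The X and Y box region is shown because it is the element that class II promoters share and CIITA acts through. Promoter sequences of 4 of the 7 genes (H2-Aa, H2-Eb1, H2-DMa and H2-DMb1) were in the RefSeq table, on build GRCm38.p6. H2-Ab1, Cd74 and Ciita are named only. H2-DMb2, a close copy of H2-DMb1, is added. In capitals are AAC and TGANG, the core letters searched for the X box, and GATTGG, the inverted CCAAT of the Y box.
H2-Aa, minus strand, chr17:34287853-34287922: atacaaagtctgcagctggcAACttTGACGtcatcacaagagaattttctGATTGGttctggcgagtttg
H2-Eb1, plus strand, chr17:34305758-34305826: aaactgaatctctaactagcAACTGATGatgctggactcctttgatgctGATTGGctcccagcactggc
H2-DMb1, plus strand, chr17:34153079-34153148: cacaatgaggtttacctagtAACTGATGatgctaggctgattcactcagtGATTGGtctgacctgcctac
H2-DMb2, plus strand, chr17:34145108-34145177: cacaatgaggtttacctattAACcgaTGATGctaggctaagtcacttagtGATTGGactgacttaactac

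The search asked for AAC, up to 3 bases, TGANG, then 10 to 25 bases and GATTGG, on both strands of the 250 bases before each start. Its letters and gaps were set on these class II promoters, so their matches are a description. The arrangement was in 3 of the 4 class II presentation genes with a sequence, and in 6 of 8 genes once H2-DMb2, H2-Eb2, H2-Oa and H2-Ob were added. Of all 32851 promoters 0.14% held it, and 14.6% held GATTGG. Neither of the 2 H2-DMa starts had it, nor did any of 20 class I presentation genes, which says only that these letters are not in those windows. Between the marked TGANG and GATTGG lay 20 bases in H2-Aa, 21 in H2-Eb1, 22 in H2-DMb1 and 19 in H2-DMb2. The marked TGANG is the first after AAC. In H2-Eb1 and H2-DMb1 another TGATG overlaps it, nearer to GATTGG. In H2-DMb1 that other TGATG lines up with the one marked in H2-DMb2, so 22 against 19 is not a difference in spacing. The GATTGG began 49 bases before the start of H2-Aa, 60 before H2-Eb1, 62 before H2-DMb1 and 91 before H2-DMb2. These starts are RefSeq's, and GENCODE begins both H2-DMb1 and H2-DMb2 further upstream.

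The libraries differed in ways that their labels do not give. Zfp251 itself stood at 6.48, 5.86 and 6.48 FPKM (fragments scaled by transcript length and library size) across KO 1 to 3 in that order, against 3.73, 3.56 and 2.95 FPKM across WT 1 to 3. Its log2 difference was 0.72 (SE 0.12, limma adjusted p = 0.223, 0.0409 without WT 1, 0.0367 with sample weights). The gene named in the knockout had higher values in the libraries labelled KO, and every direction below is that of the labels. Values per gene do not tell exons apart. All 12 fat cell markers were present, with summed levels of 38127 to 46588 FPKM in the libraries labelled KO and 52907 to 94911 FPKM in WT. The sum of 8 epithelial markers, 3 of them at 0 in at least 1 library, was 161, 174 and 82.8 FPKM across KO 1 to 3, against 70.9, 4.08 and 2.30 FPKM across WT 1 to 3. WT 1 thus carried epithelial RNA like the libraries labelled KO. The total of all FPKM ran from 426966 to 439354 in the libraries labelled KO and from 468499 to 637902 in WT, the highest being WT 3. In bulk tissue, fewer cells of a type and less RNA per cell cannot be told apart.

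Class II transcripts were abundant in every library. Cd74, the invariant chain, had the highest level, followed by the alpha chain gene H2-Aa, the beta chain genes H2-Ab1 and H2-Eb1, then H2-DMa, H2-DMb1 and, far below, Ciita. Over the 6 libraries the ranges were 512 to 642 FPKM for Cd74, 348 to 493 FPKM for H2-Aa, 239 to 277 FPKM for H2-Ab1 and 167 to 214 FPKM for H2-Eb1. They were 28.8 to 36.9 FPKM for H2-DMa, 16.5 to 23.7 FPKM for H2-DMb1 and 2.53 to 4.48 FPKM for Ciita. The ranges of neighbours in this order did not overlap, so the order was the same in all 6 libraries. By mean level Cd74 ranked 79th, H2-Aa 140th, H2-Ab1 240th and H2-Eb1 347th among all 21829 genes. FPKM is scaled by length, so levels can be set side by side.

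**Figure D1:**
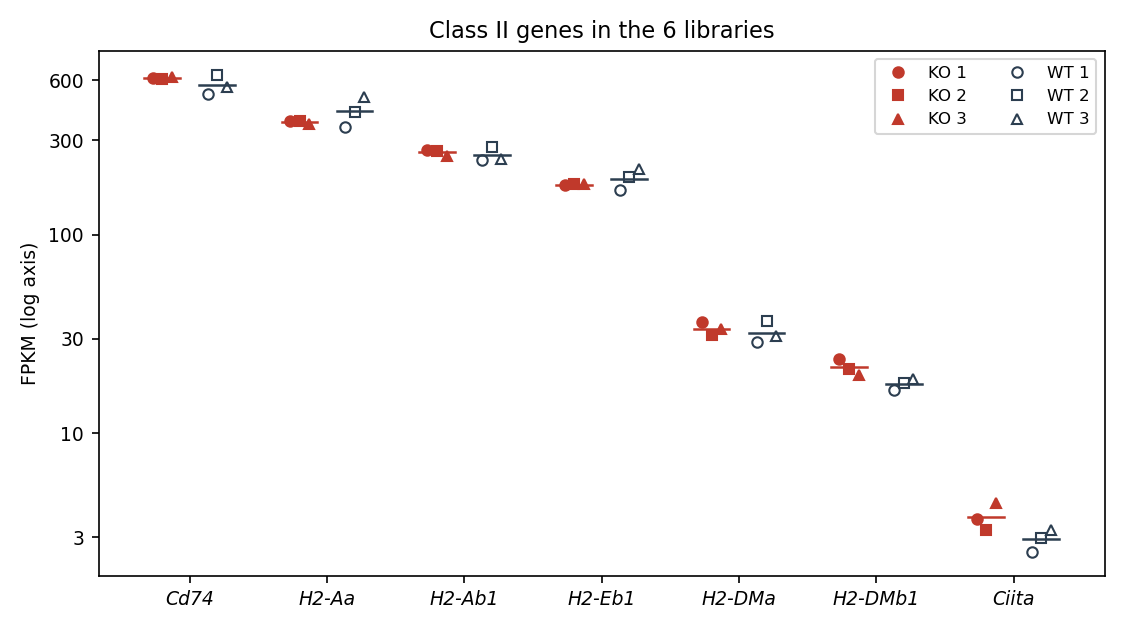
FPKM (log axis) of the 7 class II genes in each library, with filled red symbols for the 3 libraries labelled KO, open symbols for the 3 WT libraries and a line at each group's mean. The order of the genes is the same in all libraries, and the groups overlap in 6 of the 7 genes, with H2-DMb1 the exception.

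No class II gene passed the adjusted threshold between the groups. Limma was run on log2(FPKM + 1) over the 12539 genes averaging 1 FPKM or more, at a Benjamini-Hochberg adjusted p under 0.05, and 0 genes passed, which is 0% of those tested. Without WT 1 it was 482 genes (3.84%), and with sample weights, which let limma trust some libraries less, 970 genes (7.74%). An unadjusted p under 0.05 was reached by 1700 genes (13.6%), with 9.13% of tested genes higher and 4.43% lower in the libraries labelled KO. Of the 7 class II genes, 1 had an unadjusted p under 0.05, a share close to that background. Values were higher in 5 and lower in 2 of the 7, and higher in all 7 with quantile normalization and with sample weights. Their limma adjusted p ran from 0.366 to 0.875. The median log2 difference of the 7 was 0.07 and that of all tested genes was -0.05. The 95% intervals of the 7 genes lay between a fold of 0.681 and a fold of 1.56 on the FPKM + 1 scale, so a change of 2-fold lies outside each of them. Those intervals rest on 3 libraries a group.

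The groups overlapped for each of the 3 classical chains. Gene positions are those of GENCODE on GRCm38. H2-Aa (ENSMUSG00000036594, chromosome 17 from 34282744 to 34287823, minus strand) encodes the alpha chain of the A molecule. It had 373, 376 and 362 FPKM across KO 1 to 3, against 348, 414 and 493 FPKM across WT 1 to 3. The 3 libraries labelled KO lay close together, inside the WT range. The log2 difference was -0.16 (SE 0.17, limma adjusted p = 0.677), but 0.13 with quantile normalization and 0.06 with sample weights.

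H2-Ab1 (ENSMUSG00000073421, chromosome 17 from 34257689 to 34269419, plus strand) encodes the beta chain that pairs with H2-Aa. Its values were 268, 266 and 250 FPKM across KO 1 to 3, against 239, 277 and 242 FPKM across WT 1 to 3. All 6 libraries lay within 1.16-fold of each other. The log2 difference was 0.05 (SE 0.13), and its 95% interval was -0.25 to 0.35. It was 0.35 with quantile normalization, 0.12 with sample weights, 0.03 with the length and GC correction and 0.01 to 0.12 with a library left out, the lowest without WT 1 and the highest without WT 2.

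H2-Eb1 (ENSMUSG00000060586, chromosome 17 from 34305867 to 34316674, plus strand) encodes the beta chain of the E molecule, whose alpha chain C57BL/6 mice do not make. It nevertheless had 177, 180 and 180 FPKM across KO 1 to 3, against 167, 195 and 214 FPKM across WT 1 to 3. As with H2-Aa, the libraries labelled KO lay inside the WT range and WT 3 was the highest. The log2 difference was -0.09 (SE 0.13), but 0.17 with quantile normalization and 0.06 with sample weights. An antisense gene, Gm20513, overlaps 2204 bases of it, and whether reads were counted by strand is not given in the sources used here.

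The invariant chain gene Cd74 (ENSMUSG00000024610, chromosome 18 from 60803848 to 60812652, plus strand) had 617, 608 and 623 FPKM across KO 1 to 3. It had 512, 642 and 554 FPKM across WT 1 to 3. The group means were 616 ± 7.74 FPKM in the libraries labelled KO and 569 ± 66.2 FPKM in WT (SD, n = 3 each). The log2 difference was 0.12 (SE 0.15), but 0.41 with quantile normalization and 0.23 with sample weights. With a library left out it ran from 0.05 (without WT 1) to 0.21 (without WT 2). WT 2 was above and WT 1 and WT 3 below all libraries labelled KO.

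The DM genes, whose product loads peptides, differed from each other in how the groups lay. H2-DMa (ENSMUSG00000037649, chromosome 17 from 34119541 to 34139101) encodes the DM alpha chain and had 36.6, 31.1 and 33.6 FPKM across KO 1 to 3, against 28.8, 36.9 and 30.9 FPKM across WT 1 to 3. Its groups overlapped, with a log2 difference of 0.07 and a standard error of 0.13. The difference was -0.004 without WT 1, 0.17 without WT 2, 0.17 with quantile normalization, 0.22 with sample weights and 0.02 with the length and GC correction. Brd2 overlaps 3094 bases of H2-DMa on the opposite strand and was expressed at 56.6 to 66.5 FPKM in the libraries labelled KO and 63.9 to 72.4 FPKM in WT.

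H2-DMb1 (ENSMUSG00000079547, chromosome 17 from 34153072 to 34160230, plus strand), a DM beta chain, had 23.7, 21.2 and 19.8 FPKM across KO 1 to 3. It had 16.5, 17.9 and 18.8 FPKM across WT 1 to 3. Every library labelled KO was above every WT library. The log2 difference was 0.27 (SE 0.11), with an unadjusted p of 0.0483 and a limma adjusted p of 0.366, which did not pass the threshold. With sample weights the difference was 0.40 and the limma adjusted p 0.0441, the lowest over its alternatives, which ran up to 0.825. An exact permutation test, two-sided, on the FPKM values gave p = 0.1, the smallest that 3 libraries against 3 allow. H2-DMb1 was the 1 class II gene of 7 whose groups did not overlap, while 10.1% of all tested genes lay wholly higher and 12.2% wholly lower in the libraries labelled KO.

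H2-DMb2, outside the 7 genes, encodes another DM beta chain and showed the same arrangement, with 6.78, 6.14 and 5.60 FPKM across KO 1 to 3, against 4.55, 5.12 and 3.74 FPKM across WT 1 to 3. Its log2 difference was 0.40 (SE 0.14, limma adjusted p = 0.286, 0.0463 with sample weights). The longest coding transcripts of H2-DMb1 and H2-DMb2 in GENCODE are 94.8% identical over 1211 aligned bases, so reads may have been split or shared between them and both values are uncertain. In contrast, those of H2-Ab1 and H2-Eb1 are 74.5% identical over 772 aligned bases.

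Ciita (ENSMUSG00000022504, chromosome 16 from 10480059 to 10528418, plus strand), the coactivator of the class II genes, had 3.69, 3.27 and 4.48 FPKM across KO 1 to 3. It had 2.53, 2.97 and 3.28 FPKM across WT 1 to 3. The groups met at 1 point, KO 2 lying just under WT 3. The log2 difference was 0.29 (SE 0.15, 95% interval -0.06 to 0.64, limma adjusted p = 0.447). It was 0.12 with quantile normalization, 0.11 with the length and GC correction and 0.19 without KO 3. Dexi overlaps 25888 bases of Ciita on the opposite strand, with 12.6, 10.8 and 12.0 FPKM across KO 1 to 3, against 11.7, 10.6 and 13.1 FPKM across WT 1 to 3. The promoters from which Ciita starts differ between cell types, and a gene-level value does not separate them.

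**Figure D2:**
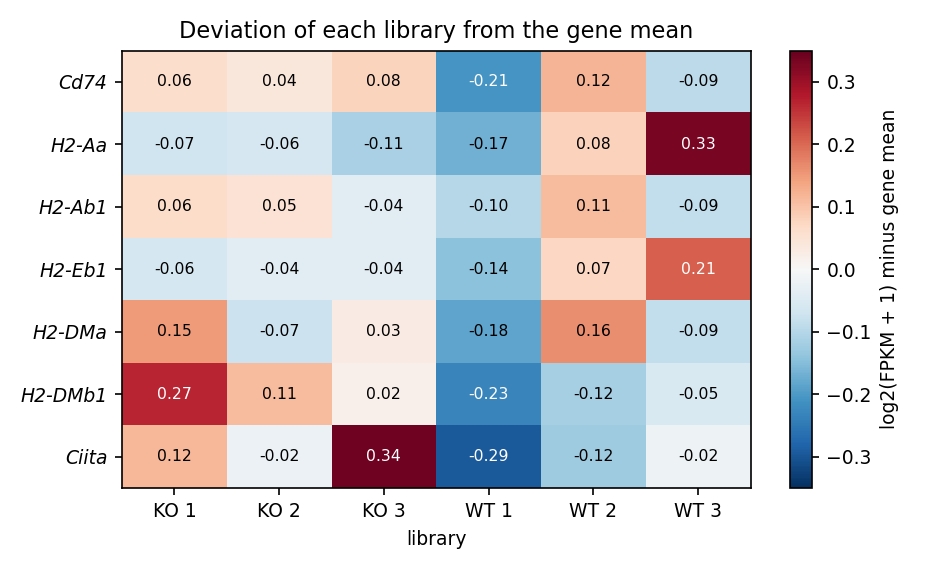
Deviation of log2(FPKM + 1) in each library from the gene's mean over the 6 libraries, for the 7 class II genes, with red above and blue below the mean. The WT 1 column is the lowest of the 6 in every row, and H2-Aa and H2-Eb1 are high in WT 3.

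In H2-Aa, H2-Ab1, H2-Eb1, H2-DMa and Cd74 both the lowest and the highest value lay in WT libraries. H2-DMb1 and Ciita were instead highest in KO 1 and KO 3, and lay mostly by label. WT 1 held the lowest of the 6 values for 7 of the 7 genes, while 10.3% of all tested genes were lowest there. The sum of the 7 genes was 1499, 1485 and 1473 FPKM across KO 1 to 3, against 1315, 1586 and 1556 FPKM across WT 1 to 3. In this sum, made up mostly of Cd74 and the classical chains, the libraries labelled KO lay between WT 1 and the other WT libraries. By gene that order held only for H2-Aa and H2-Eb1. WT 3 lay below all libraries labelled KO in Cd74, H2-Ab1, H2-DMa and H2-DMb1. Without WT 1 the median log2 difference of the 7 genes was 0.01, and without WT 2 it was 0.17.

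Markers of other cells followed the order of the summed class II genes only in part. The summed level of the 22 macrophage markers was 1318, 1313 and 1728 FPKM across KO 1 to 3, against 1468, 2017 and 2082 FPKM across WT 1 to 3, so that WT 1 was the lowest WT library in macrophage RNA but lay above KO 1 and KO 2. WT 1 also carried the most epithelial RNA of the WT libraries, though less than each library labelled KO. The part of either in the class II levels was not tested.

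Over the 6 libraries the standard deviation of log2(FPKM + 1) ran from 0.09 for H2-Ab1 to 0.22 for Ciita, with a median of 0.14 over the 7 genes. It was 0.22 for the median tested gene and 0.21 for the median of the 6601 tested genes at 10 FPKM or more. Of the 7 genes, 7 lay under the first of these and 6 under the second. The share of tested genes with a smaller spread was 7.35% for H2-Ab1, 19.1% for H2-Eb1 and Cd74, and 24.8% for H2-DMa. It was 37.2% for H2-DMb1, 39.5% for H2-Aa and 49.8% for Ciita, so these 3 sat nearer the middle.

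Class II genes did not all vary together. The root mean square difference between the log2 deviations of 2 genes was smallest for H2-Aa and H2-Eb1 (0.06), both high in WT 3. Cd74, H2-Ab1 and H2-DMa formed the next closest pairs, between 0.06 and 0.08, all highest in WT 2. The largest difference was between H2-Aa and Ciita (0.26). The ratio of H2-Aa to its partner H2-Ab1 was 1.39, 1.42 and 1.45 across KO 1 to 3, against 1.46, 1.49 and 2.04 across WT 1 to 3. All but WT 3 lay close together, and without WT 3 the mean ratio in the libraries labelled KO was 0.962 of that in WT, against 0.854 with it. A ratio within a library does not depend on how that library was scaled.

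The tested genes outside the class II list nearest to its median profile were compared by the same measure over the 6 libraries. The 10 nearest of 12532 included Zfp213, Rtl8a, Rbfox2, Zswim8, Rps6kc1, Fip1l1, Eps15l1, Atp2c1 and Svil, with differences of 0.033 to 0.043 against a median of 0.218 for all tested genes. The median profile was itself flat, from -0.18 in WT 1 to 0.08 in WT 2, so genes that vary little come near it. None of these 10 is in the lists of immune cell markers used here. Those lists hold 22 macrophage, 9 dendritic cell, 5 B cell and 5 T cell genes that were tested. So few among 12532 would rarely appear in 10, and nothing is concluded from their absence. Zfp213, a zinc finger gene and the nearest, had 4.64, 4.09 and 4.46 FPKM across KO 1 to 3, against 3.799, 4.53 and 4.05 FPKM across WT 1 to 3. Cd74 came 10th, H2-Ab1 42nd and H2-DMa 54th in the same ordering with the 7 genes included, which the median profile partly fixes.

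**Figure D3:**
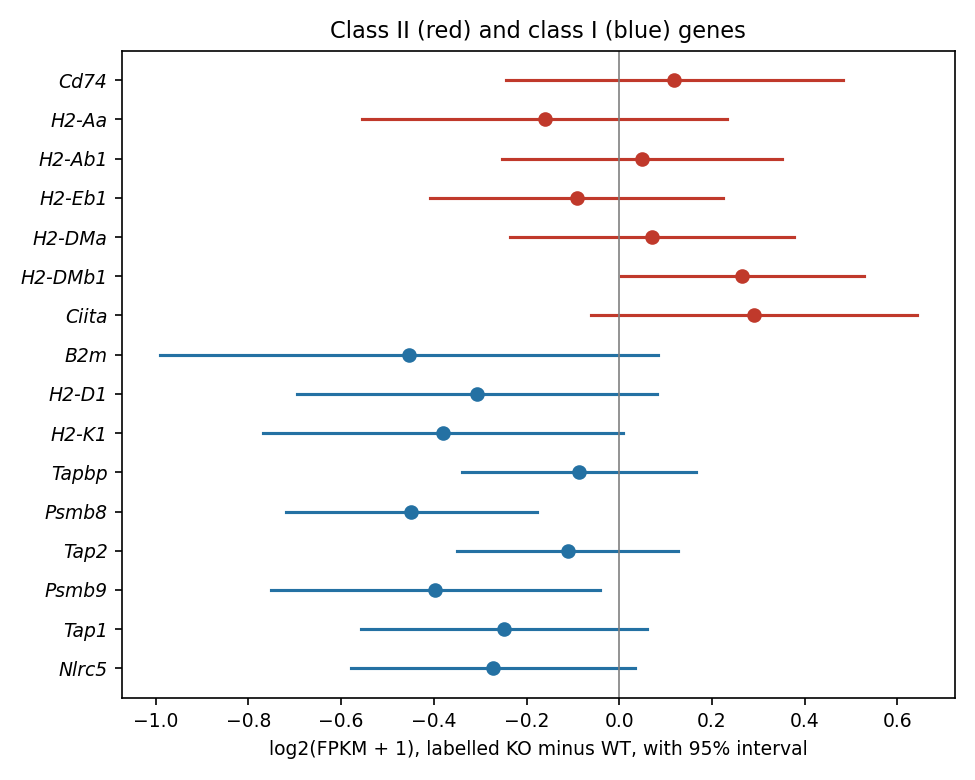
Difference in log2(FPKM + 1), libraries labelled KO minus WT, with limma's 95% interval, for the 7 class II genes (red) and 9 class I presentation genes (blue). The class II points run from -0.16 to 0.29, and all 9 class I points lie below 0. These 9 were picked by name from the 23 tested, and genes nearer 0, such as H2-Q7 (-0.03) and Canx (-0.06), are not drawn. With quantile normalization 15 of the 23 were lower, and H2-D1 was above 0.

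Class I presentation genes, which show peptides from inside the cell to CD8+ T cells, lay lower in the libraries labelled KO, though none passed the adjusted threshold. All 23 tested genes of the list had lower values there, with a median log2 difference of -0.24. The median of all tested genes was itself -0.05, and -0.09 for those at 5 FPKM or more. Counts of lower genes, here and in the lists below, thus start from a set that leans lower. The number lower was 22 with median-ratio scaling, 23 with a length and GC correction, 22 with sample weights and 15 with quantile normalization. With quantile normalization the median was -0.08, against -0.05 for all tested genes. Groups did not overlap in 9 of the 23, all lower, where 12.2% of tested genes lay wholly lower, and 2 of 23 had an unadjusted p under 0.05, where 4.43% of tested genes did so as lower.

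B2m, the light chain of class I, had 1681, 1704 and 1815 FPKM across KO 1 to 3, against 2166, 2044 and 3019 FPKM across WT 1 to 3. The heavy chain gene H2-K1 had 559, 601 and 687 FPKM across KO 1 to 3, against 805, 733 and 864 FPKM across WT 1 to 3. The immunoproteasome subunit Psmb8 had 34.6, 42.4 and 40.1 FPKM across KO 1 to 3, against 53.3, 51.3 and 55.9 FPKM across WT 1 to 3. In these 3 genes the libraries labelled KO were all below WT. The log2 differences were -0.45 for B2m, -0.38 for H2-K1 and -0.45 for Psmb8 (limma adjusted p = 0.439, 0.376 and 0.223). With quantile normalization they were -0.08 for B2m, -0.08 for H2-K1 and -0.32 for Psmb8, and B2m had -0.28 without WT 3 and -0.24 with the length and GC correction. With sample weights H2-K1 and Psmb8 passed (limma adjusted p = 0.047 and 0.0395). H2-D1, another heavy chain gene, had -0.31 (0.02 with quantile normalization), and Psmb9, a further immunoproteasome subunit, had -0.40.

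Nlrc5, which does for class I what Ciita does for class II, went the other way from Ciita, with 9.27, 9.14 and 12.2 FPKM across KO 1 to 3, against 12.6, 12.4 and 12.3 FPKM across WT 1 to 3. The log2 difference of Nlrc5 was -0.27 with a standard error of 0.13, against 0.29 for Ciita. With quantile normalization it was -0.27 for Nlrc5 against 0.12 for Ciita, and with the length and GC correction -0.45 against 0.11. Their ratio, Ciita over Nlrc5, was 0.398, 0.358 and 0.368 across KO 1 to 3, against 0.2004, 0.240 and 0.267 across WT 1 to 3. The groups did not overlap in this ratio. The libraries labelled KO averaged 1.59 times the WT ratio, and between 1.48 and 1.70 times with a library left out.

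Cd74 over B2m was 0.367, 0.357 and 0.343 across KO 1 to 3, against 0.236, 0.314 and 0.184 across WT 1 to 3, again with no overlap. The summed class II chains H2-Aa, H2-Ab1 and H2-Eb1 over the summed class I chains H2-K1 and H2-D1 gave 0.671, 0.643 and 0.532 across KO 1 to 3. Across WT 1 to 3 this gave 0.463, 0.552 and 0.525, so that here KO 3 lay among the WT libraries. These ratios were chosen after the values were seen and are given as descriptions, with no test.

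**Figure D4:**
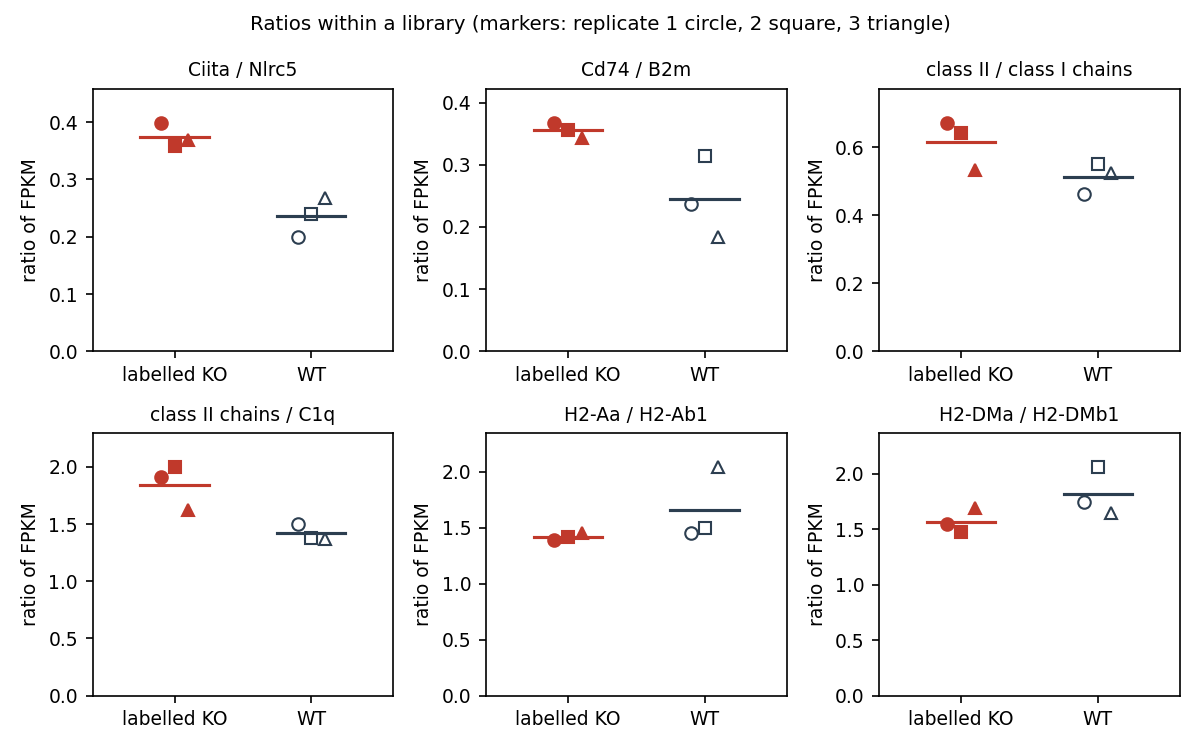
Ratios of FPKM within each library, with the 3 libraries labelled KO left of the 3 WT libraries and a line at each mean. The axes start at 0. Ciita over Nlrc5, Cd74 over B2m and the class II chains over C1q lie higher in all libraries labelled KO, the class II over class I chains and H2-DMa over H2-DMb1 overlap, and H2-Aa over H2-Ab1 is lower, with WT 3 apart.

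Of the factors that CIITA works with, none separated the groups upward. Of 16 tested genes of class II transcription, 4 were higher and 12 lower by mean in the libraries labelled KO, with a median of -0.07. Rfx5, the DNA-binding part of the X box complex, had 5.01, 4.94 and 5.51 FPKM across KO 1 to 3, against 5.29, 5.25 and 5.92 FPKM across WT 1 to 3. Its groups overlapped, as did those of its partners Rfxank and Rfxap and of Nfya, a Y box subunit, with log2 differences of -0.06, 0.21 and -0.03. Irf1, a transcription factor induced by interferon gamma, had 32.3, 25.8 and 32.3 FPKM across KO 1 to 3, against 33.6, 34.6 and 32.95 FPKM across WT 1 to 3. All libraries labelled KO were below WT in Irf1 (log2 difference -0.16, limma adjusted p = 0.572).

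Interferon gamma signalling, the best known inducer of Ciita outside dedicated presenting cells, had 8 of 9 tested genes lower, and 6 of 9 with quantile normalization, with a median of -0.14. Ifng, the cytokine itself, was listed at 0, 0.073 and 0 FPKM across KO 1 to 3, and at 0.052, 0.197 and 0.155 FPKM across WT 1 to 3, below the filter. Ifngr1, its receptor chain, had a log2 difference of -0.14 (0.10 with quantile normalization), and the phosphatase Ptpn11 one of -0.06 (0.09 with quantile normalization).

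Genes that trim the invariant chain or process antigen had lower values in 11 of 11 tested cases, with a median of -0.24. This was 10 of 11 with median-ratio scaling, with a length and GC correction and with sample weights, and 6 of 11 with quantile normalization, where the median was -0.06. Ctss, the cathepsin that removes most of the invariant chain, had 45.6, 43.4 and 81.9 FPKM across KO 1 to 3, against 46.3, 92.6 and 63.1 FPKM across WT 1 to 3. Its groups overlapped widely, as KO 3 lay high and WT 1 low. Ctsz, another cathepsin, was the 1 gene of the 11 with an unadjusted p under 0.05, where 4.43% of all tested genes had one as lower, with 78.8, 72.0 and 88.7 FPKM across KO 1 to 3, against 106, 101 and 118 FPKM across WT 1 to 3 (log2 difference -0.44, limma adjusted p = 0.224, 0.039 with sample weights). The abundant Cst3, a cathepsin inhibitor, had -0.49 and Ctsd -0.37, both with overlapping groups.

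Turnover and costimulation were mixed. March8, a ligase related to the one that removes class II from the surface, had 33.6, 35.5 and 29.8 FPKM across KO 1 to 3, against 26.7, 31.2 and 28.3 FPKM across WT 1 to 3. Il10ra, a receptor chain for interleukin 10, had 4.72, 5.37 and 6.65 FPKM across KO 1 to 3, against 7.20, 8.43 and 7.25 FPKM across WT 1 to 3. Of 5 tested costimulatory genes, Cd40 and Cd86, which activate presenting cells and T cells, lay wholly lower, as did 12.2% of all tested genes, with log2 differences of -0.73 and -0.42. Icosl, the ligand of ICOS, lay wholly higher at 0.32, as did 10.1% of all tested genes, and Cd274, which encodes PD-L1, had overlapping groups. No gene of these 2 lists passed the adjusted threshold, though Cd40 did with sample weights (limma adjusted p = 0.0451). Of the other class II region genes, H2-Ob, a chain of the DM inhibitor DO, had a log2 difference of -0.17 and H2-Oa one of -0.28, both near the filter.

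Markers of the cells that carry class II mostly had lower values in the libraries labelled KO. Of 22 tested macrophage markers, 20 were lower in the libraries labelled KO, with a median log2 difference of -0.35 and with 8 of 22 at an unadjusted p under 0.05, where 4.43% of tested genes did so as lower. The number lower was 18 with quantile normalization and 19 with sample weights. None passed the adjusted threshold, though Cd14 did without WT 1 (limma adjusted p = 0.0359) and Cd14 and Mrc1 did with sample weights (0.0451 and 0.0367). C1qa, a complement subunit made by resident macrophages, had 154, 135 and 171 FPKM across KO 1 to 3, against 174, 229 and 245 FPKM across WT 1 to 3. Mrc1, a mannose receptor, had 25.4, 24.9 and 29.2 FPKM across KO 1 to 3, against 37.2, 35.3 and 39.4 FPKM across WT 1 to 3. Both genes lay wholly lower in the libraries labelled KO, and so did Cd14, a receptor for bacterial lipopolysaccharide, with a log2 difference of -0.69. In all, 5 of the 22 markers lay wholly lower, where 12.2% of tested genes did. Cd163 and Mertk had higher values, with overlapping groups and log2 differences of 0.16 and 0.14. Lyz2, which encodes lysozyme, had overlapping groups and -0.25 (0.07 with quantile normalization).

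The summed class II chains over the summed C1qa, C1qb and C1qc were 1.91, 2.00 and 1.63 across KO 1 to 3, against 1.51, 1.38 and 1.37 across WT 1 to 3. The libraries labelled KO were all higher, by 1.30 times in the mean and by 1.25 to 1.38 times with a library left out. C1qa, C1qb and C1qc are among the 5 of 22 macrophage markers that lay wholly lower, which favours a separation in this ratio. C1qb and C1qc were added after their values were seen, so the ratio is a description, with no test. In Cd74 over Ctss the groups overlapped. That ratio was 13.54, 13.99 and 7.603 across KO 1 to 3, against 11.06, 6.933 and 8.788 across WT 1 to 3. How much of the class II RNA came from macrophages was not tested.

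Of 13 dendritic cell markers 9 were tested, with 7 lower (5 with sample weights) and a median of -0.22, which was -0.06 without WT 3, and the sum of the 13 was 102 to 108 FPKM in the libraries labelled KO and 98.5 to 140 FPKM in WT. The most abundant of them was Bst2, which is also induced by interferon in other cells, with 44.6, 41.2 and 46.6 FPKM across KO 1 to 3, against 57.0, 59.0 and 48.1 FPKM across WT 1 to 3. Its log2 difference was -0.30 (limma adjusted p = 0.346, 0.0395 with sample weights). Fscn1, an actin-bundling protein, had overlapping groups and a log2 difference of 0.57. Cd83, which marks activated presenting cells and steadies surface class II, had 5.51, 4.83 and 6.54 FPKM across KO 1 to 3, against 12.3, 22.6 and 7.72 FPKM across WT 1 to 3 (limma adjusted p = 0.241, 0.0388 with sample weights). Only 5 of the B cell markers were tested, and all 5 had lower values, with a median of -0.45 (4 of 5 with sample weights). The B cell receptor subunit Cd79a had 1.05, 1.40 and 1.12 FPKM across KO 1 to 3, against 1.54, 3.38 and 2.84 FPKM across WT 1 to 3 (limma adjusted p = 0.275, 0.0485 without WT 1). The marker Cr2 was listed at 0 in KO 2. The sum over 13 B cell markers was 23.9 to 29.6 FPKM in the libraries labelled KO and 25.6 to 41.3 FPKM in WT.

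The fat cell list had lower values in 12 of 12 genes (8 of 12 with quantile normalization, 10 of 12 with sample weights), with a median of -0.46, which was -0.05 with quantile normalization. Their level is high. Cfd, Car3 and Fabp4 together made up 6.88% to 8.31% of all FPKM in the libraries labelled KO and 8.88% to 12.2% in WT. Whether this bears on the values of other genes was not tested. Cidec, a lipid droplet protein, had a log2 difference of -0.49 (limma adjusted p = 0.367, 0.047 with sample weights).

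**Figure D5:**
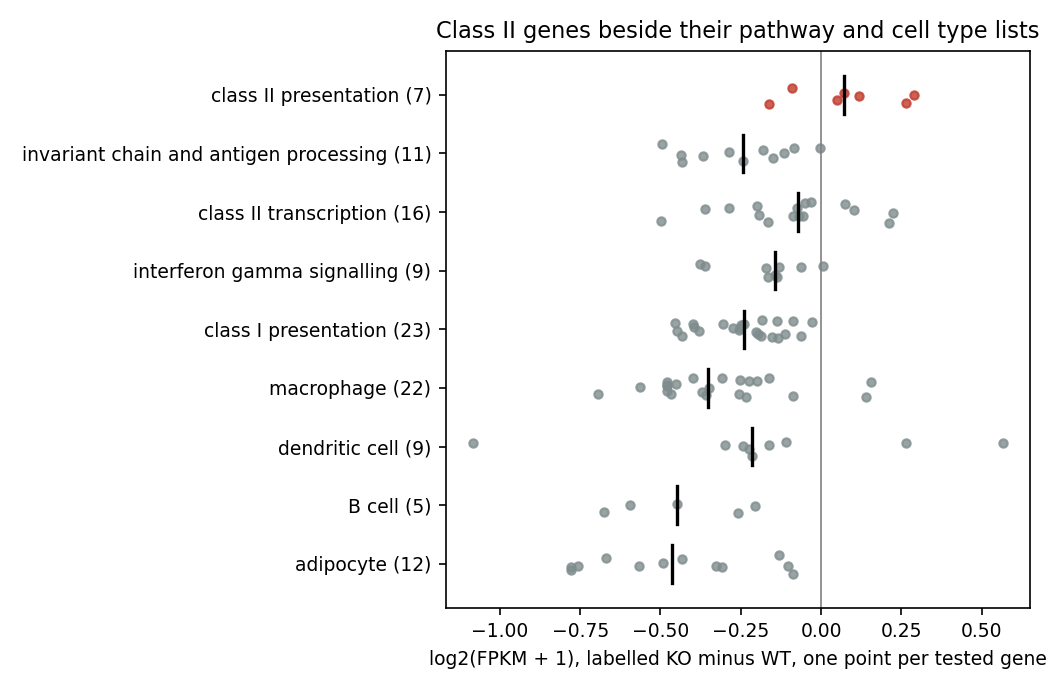
Differences in log2(FPKM + 1), libraries labelled KO minus WT, 1 point per tested gene, for the class II genes (red) and 8 pathway and cell type lists (grey), with the number of tested genes in parentheses and a black line at each median. The class II median is 0.07 and the other medians drawn lie between -0.46 and -0.07. Lists not drawn include class II turnover and endothelial genes, with medians of 0.19 and 0.09.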

How the data were processed

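Total RNA was extracted with TRIzol and made into stranded mRNA libraries, per the labels' protocols. The submitters' processing notes name the aligner STAR (2.5.4), the programs Cuffdiff (2.2.1) and Cufflinks, and build mm10. Which annotation, strand setting and normalization they used is not given in the sources used here. The deposited values were read as FPKM made by the authors with 1 column per library, from those tools and from the values, as no header names the unit.

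The table had 21853 rows. Where a symbol recurred (24 rows), its highest row by mean was used. Genes averaging 1 FPKM or more were put on the log2(FPKM + 1) scale and fitted by limma (3.58.1, under R 4.3.3) with a mean-variance trend and group as the only term, and p was adjusted by Benjamini-Hochberg over 12539 genes. Fold changes on this scale understate the change of low genes. Count tests were not run, since the table holds no counts. Low FPKM values gave depths of 0.832 for KO 1, 0.653 for KO 2, 0.946 for KO 3 and 0.79 for WT 2 relative to WT 1, from a step shared by 15.3% to 21.8% of low genes. No depth was taken for WT 3, where the share was 11.9%. Counting intervals would need the total depth, which is unknown. Simulated data were made from 12539 real gene means with independent noise. On them the KO against WT fit recovered 32% of 50 genes changed 1.5-fold, 58% of 50 changed 2-fold and 88% of 50 changed 4-fold. The changed genes were drawn from those above about 5 FPKM, so these shares do not cover Ciita or other low genes. Real libraries also differed in many genes together, such as the epithelial markers in WT 1, which independent noise leaves out. In the real fit Foxj1 and Epcam had log2 differences of 3.81 and 3.27 but limma adjusted p of 0.223 and 0.226. The shares thus describe the simulated setting and not the power of the real comparison.

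Positions, lengths and overlaps came from GENCODE M21 on GRCm38, the assembly of mm10. The class II genes and all lists were chosen with earlier results of these data known. Named genes were the 7 class II genes, Zfp251, list members with an unadjusted p under 0.05, the 2 of highest level in each list, up to 2 with the smallest p in each cell type list, and the 10 nearest profiles. Some genes this rule allows are not reported here. H2-K1, Nlrc5, Rfx5, Rfxank, Rfxap, Nfya, Ctss, Ifng, H2-Oa, C1qb, C1qc, Cr2, Brd2 and Dexi were added after their values were seen. The alternatives were 2 other pseudocounts, 2 other filters, 2 scalings, no trend, sample weights, a length and GC correction, a replicate block and each library left out.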

Additional observations from a re-analysis of the deposited data

How the results depend on the processing

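Over 16 alternatives the 7 class II genes gave 111 values, of which 106 kept their direction and 1 passed the adjusted threshold. That was H2-DMb1 with sample weights (log2 difference 0.40, limma adjusted p = 0.0441, range 0.0441 to 0.825 over its alternatives). H2-Aa and H2-Eb1 turned to 0.13 and 0.17 with quantile normalization and to 0.055 and 0.06 with sample weights, and H2-DMa had -0.004 without WT 1. With a library left out the ranges were -0.29 to -0.04 for H2-Aa, -0.19 to -0.01 for H2-Eb1, and -0.004 to 0.17 for H2-DMa. Ciita did not pass the 5 FPKM filter. The median of the 7 genes was 0.22 with sample weights and 0.012 to 0.17 with a library left out. The number with an unadjusted p under 0.05 was 3 with sample weights, 0 without the trend, and 0 to 1 with a library left out.

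Over all genes, 970 passed the adjusted threshold with sample weights and 1 (Exo1, named after its value was seen, with 0.386, 0.397 and 0.395 FPKM across KO 1 to 3 and 0.154, 0.155 and 0.147 FPKM across WT 1 to 3) with no filter. With a library left out 0 to 482 passed, the 482 being without WT 1. The number of genes with an unadjusted p under 0.05 was 974 with the 5 FPKM filter (463 higher), 3914 with sample weights (1933 higher, 1981 lower) and 866 to 2195 with a library left out (691 to 1211 higher, 175 to 1051 lower). After the length and GC correction 1077 were lower. The cause of these shifts was not tested.

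Deviations of same-numbered libraries correlated at 0.228, -0.2 and 0.22 across genes, and those of differently numbered ones at -0.477 to 0.426. Deviations within a group of 3 are tied to each other, so these values cannot tell whether the libraries were paired. With the replicate block 0 genes passed the adjusted threshold, there were 1714 genes with an unadjusted p under 0.05 and 0 of the class II genes did.

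Of 59 other named genes, 911 of 932 values kept their direction. With quantile normalization these turned: Cd274 -0.047, Cfd 0.093, H2-D1 0.017, Ifngr1 0.101, Lyz2 0.065 and Ptpn11 0.093. With sample weights Ccl21a had -0.39, Cd2 0.084, Cd274 -0.087 and Cd37 0.087, and after the length and GC correction Cd247 had 0.012. With a library left out the ranges were -0.29 to 0.52 for Ccl21a, -0.31 to 0.044 for Cd2, -0.32 to 0.165 for Cd247, -0.18 to 0.12 for Cd274, -0.14 to 0.017 for Ptpn11, -0.60 to 0.00 for Upk3b and -0.53 to 0.014 for Ctss.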

Other observations

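Outside the lists tied to class II, a chemokine gene and an epithelial group stood out. Cxcl13, which draws B cells into lymphoid tissue, had 2.16, 1.596 and 1.46 FPKM across KO 1 to 3, against 6.62, 8.41 and 15.5 FPKM across WT 1 to 3. Its log2 difference was -1.96 (SE 0.29, limma adjusted p = 0.223, 0.0127 without WT 1). Of 4 tested lymphoid stroma genes 2 had lower values in the libraries labelled KO (3 with quantile normalization, 4 with sample weights), and Ccl21a, another chemokine gene, had overlapping groups. All 5 tested T cell markers had lower values, their median being -0.07 (-0.24 without WT 1 and -0.33 with quantile normalization; lower in 4 when corrected for length and GC, in 3 with sample weights). Of 10 endothelial genes 4 and of 8 mesothelial genes 5 had lower values (8 and 4 with sample weights).

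All 7 tested epithelial markers and all 8 tested multiciliated cell markers had higher values in the libraries labelled KO, with median log2 differences of 2.87 and 1.88. The epithelial surface gene Epcam had 30.8, 34.3 and 16.4 FPKM across KO 1 to 3, against 14.2, 0.199 and 0.191 FPKM across WT 1 to 3. Foxj1, which drives formation of motile cilia, had 44.2, 43.2 and 20.0 FPKM across KO 1 to 3, against 13.9 and 0.034 FPKM in WT 1 and WT 2, and was listed at 0 in WT 3. WT 1 lay close to KO 3 in both genes. Their limma adjusted p was 0.226 for Epcam and 0.223 for Foxj1, and 0.00579 for each without WT 1.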
